A study of Mus musculus with 30 samples.

Results

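The lysosomal hydrolases and membrane proteins described here are 38 genes, chosen by name. They comprise 11 glycosidases, 3 sulfatases, 12 cathepsins and other proteases, 7 lipid hydrolases with their cofactors, and 5 proteins of the lysosomal membrane. Grn, the precursor of the granulins, is counted with the lipid group. All 38 names matched a row among the 56941 Ensembl genes of the count files. The cells were of the mHypoA-2/12 line, an immortalized clonal line derived from neurons of the adult mouse hypothalamus. They received cannabidiol (CBD, a cannabinoid of the hemp plant that is not intoxicating) at 3 µM, 1.5 µM, 0.75 µM or 0.325 µM, or the vehicle alone, and were collected after 6 h or 24 h. All groups, the vehicle groups included, carried 0.1% DMSO, so that no culture was free of solvent. The 10 groups held 3 libraries each, 30 in all, sequenced from the 3′ ends of polyadenylated RNA (QuantSeq 3′ mRNA-Seq). The libraries are named A1 to A30 as the authors named them. Because the line is a single clone, the 3 libraries of a group stand for repeated samples of the same cells and not for animals.

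Lysosomes are acidic organelles in which macromolecules brought by endocytosis, phagocytosis and autophagy are broken down to sugars, amino acids, lipids and sulfate that the cell reuses. Most of the soluble enzymes are tagged with mannose 6-phosphate in the Golgi and sorted to the lysosome, where proteolysis often makes them active, while heavily glycosylated membrane proteins line the organelle from inside. Many of these genes are driven together by the transcription factors TFEB and TFE3, and loss of single enzymes causes lysosomal storage diseases, several of which affect neurons first.

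Promoter windows of 5 members are shown, picked from those that passed in a comparison below. Each holds the hexamer CACGTG, the core of the E-box that factors of the TFEB family bind. For 35 of the 38 genes, RefSeq (GRCm38.p6) gave a window of 300 bases around the start of the gene, in 38 windows, since Ctsa, Lgmn and Psap had more than 1. Asah1, Ctsb and Ctsh had no entry. CACGTG reads the same on both strands and was found in 12 of these windows (31.6%), against 7.15% of all 32851 promoter windows of the mouse table. The longer form TCACGTGA, which contains it and is also its own reverse complement, was found in 4 member windows, those of Ctsa, Ctsd, Gla and Mcoln1, and in 0.974% of all windows. The 250 bases before the start are printed from 5′ to 3′ on the strand of the gene, with CACGTG in capitals. They lie at chr8:13158911-13159160 (plus strand) for Lamp1, chr2:164833523-164833772 (plus strand) for Ctsa, chr11:119267713-119267962 (plus strand) for Gaa, chr13:64370521-64370770 (minus strand) for Ctsl and chrX:134601006-134601255 (minus strand) for Gla.
Lamp1: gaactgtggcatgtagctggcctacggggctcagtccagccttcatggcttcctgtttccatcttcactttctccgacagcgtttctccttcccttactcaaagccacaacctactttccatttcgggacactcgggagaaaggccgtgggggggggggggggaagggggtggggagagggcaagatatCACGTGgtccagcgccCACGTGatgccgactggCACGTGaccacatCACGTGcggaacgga
Ctsa: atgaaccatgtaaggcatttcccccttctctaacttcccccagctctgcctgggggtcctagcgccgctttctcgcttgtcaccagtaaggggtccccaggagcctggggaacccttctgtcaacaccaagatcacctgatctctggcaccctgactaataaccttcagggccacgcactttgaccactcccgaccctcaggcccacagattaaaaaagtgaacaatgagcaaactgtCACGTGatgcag
Gaa: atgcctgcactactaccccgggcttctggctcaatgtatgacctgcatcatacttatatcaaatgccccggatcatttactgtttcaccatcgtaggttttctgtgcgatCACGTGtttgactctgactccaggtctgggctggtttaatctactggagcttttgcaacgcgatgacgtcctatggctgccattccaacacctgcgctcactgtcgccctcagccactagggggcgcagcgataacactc
Ctsl: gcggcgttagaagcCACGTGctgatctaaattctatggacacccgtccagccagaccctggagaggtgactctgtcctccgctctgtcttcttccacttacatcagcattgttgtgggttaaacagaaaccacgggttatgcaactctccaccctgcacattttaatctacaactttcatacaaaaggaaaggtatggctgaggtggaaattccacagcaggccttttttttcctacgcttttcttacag
Gla: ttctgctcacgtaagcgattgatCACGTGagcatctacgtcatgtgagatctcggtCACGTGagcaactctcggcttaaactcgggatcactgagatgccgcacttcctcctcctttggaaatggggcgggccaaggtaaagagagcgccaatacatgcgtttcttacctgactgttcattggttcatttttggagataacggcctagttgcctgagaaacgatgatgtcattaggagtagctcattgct
Lamp1 held 4 copies, beginning 61, 45, 28 and 15 bases before its start. Gla held 2, beginning 227 and 194 bases before it, and both belonged to the longer form. Ctsl had 1 copy, beginning 236 bases before its RefSeq start, and Gaa had 1 at 140 bases. Ctsa had 1 in the printed stretch, at 12 bases before the RefSeq start used for that window. The printed stretches of Ctsl and Ctsa lie inside their gene models in GENCODE M21 (GRCm38), chr13:64359337-64370890 (minus strand) and chr2:164832873-164841032 (plus strand). Those of Gaa and Gla lie partly inside theirs, chr11:119267887-119285454 (plus strand) and chrX:134588149-134601125 (minus strand). All distances are from the RefSeq start. Ctsa also had a window at chr2:164832622-164832921, around its GENCODE start, which held no match and is not printed. These matches describe letters in the windows and do not show that a factor was bound. Among all members with a window, 12 of 35 held the hexamer. Of those with a window that rose from 6 h to 24 h over the treatments, 7 of 21 did, and 2 of the 2 that fell. Of those lower at 3 µM than at the lower doses at 24 h, 3 of 8 held it, and 0 of the 1 higher. Whether the hexamer goes with a change was not tested.

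Libraries held 1839621 to 4420675 reads on genes. Between 17.7% and 22.2% of uniquely mapped reads fell outside genes. At 24 h this share was 20.8% to 21.7% with 3 µM of CBD and 18.7% to 20.4% with the lower doses, ranges that did not overlap, and 20.9% to 22.2% in vehicle. Of 9 markers of microglia and macrophages, cells rich in lysosomes, Tyrobp, C1qa, C1qb and Itgam had no read in any library, which allows up to 3 reads each over all libraries. The summed level of these 9 was 18.3 to 53.4 CPM at 6 h and 14.7 to 32.9 CPM at 24 h. Of 8 neuronal markers, Tubb3 had 4123 reads over all libraries, Map2 2006 and Stmn2 1314. Snap25 and Rbfox3 were near 0 (0.0405 and 0.584 CPM on average), and Syt1, Elavl3 and Elavl4 had 159, 31 and 8 reads. The 8 neuronal markers together gave 67.3 to 103 CPM at 6 h and 81.1 to 112 CPM at 24 h. The 7 markers of fibroblasts and mesenchyme summed to 5529 to 7221 CPM at 6 h and 5808 to 7192 CPM at 24 h. The 5 astrocyte markers summed to 2.18 to 9.53 CPM at 6 h and 3.96 to 20.3 CPM at 24 h, and the 5 oligodendrocyte markers to 9.01 to 20.2 CPM and 20.6 to 38.1 CPM. In vehicle cells the summed neuronal, astrocyte and oligodendrocyte markers were higher at 24 h than at 6 h without overlap, and the part of these markers in the differences between the times was not tested. At 3 µM and 24 h each of the 5 sums overlapped that of the lower doses, but single markers passed the test in that comparison, as given with it. In bulk RNA, a change in the make-up of the culture and a change in RNA per cell cannot be told apart.

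Levels are given in CPM, the reads of a gene per 1000000 reads on genes of its library, scaled by the TMM method of edgeR. Since the 3′ protocol yields about a single fragment per transcript, CPM were compared between genes without division by length. Cd63, a tetraspanin of late endosomes and lysosomes, stood highest at 1579 ± 188 CPM (SD, n = 30), and its lowest library (1182 CPM) lay above the highest of the next gene, Npc2 (1151 CPM). Npc2, a carrier of cholesterol out of the lysosome, averaged 1004 CPM, and Ctsd, the aspartic protease cathepsin D, 781 CPM. Grn averaged 559.6 CPM, and Lamp2, a glycoprotein of the lysosomal membrane, 394 CPM. These 5 genes made up 62.7% of the reads on all members. Ctsd stood above Lamp2 in that its lowest library (551 CPM) exceeded the highest of Lamp2 (516 CPM), while the range of Grn overlapped those of both.

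By role, the membrane proteins gave 33.4% of the summed level, the lipid hydrolases and cofactors 30%, the proteases 26.6%, the 11 glycosidases 8.87% and the sulfatases 1.12%. The glycosidases that were tested ranged from Hexa (the alpha subunit of beta-hexosaminidase) at 153 CPM to Gla (alpha-galactosidase A) at 6.44 CPM, the latter on 7 to 54 reads a library. Of the proteases, Ctsk, the collagen-cleaving cathepsin K, averaged 6.29 CPM. Ctss, the cathepsin of antigen-presenting cells, had no read among 84273080, which allows a level of up to 0.0356 CPM. Ctso, a cysteine cathepsin, had 170 reads over all libraries (1.98 CPM), and Manba, beta-mannosidase, 109 (1.27 CPM). These 3 did not pass the filter on low counts, and the other 35 members were tested in every comparison. Among the 10 most abundant members the spread over the 30 libraries was widest for Ctsl, Psap and Lamp1 (coefficients of variation 35.7%, 34.4% and 32%) and narrowest for Npc2 (7.88%).

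**Figure D1:**
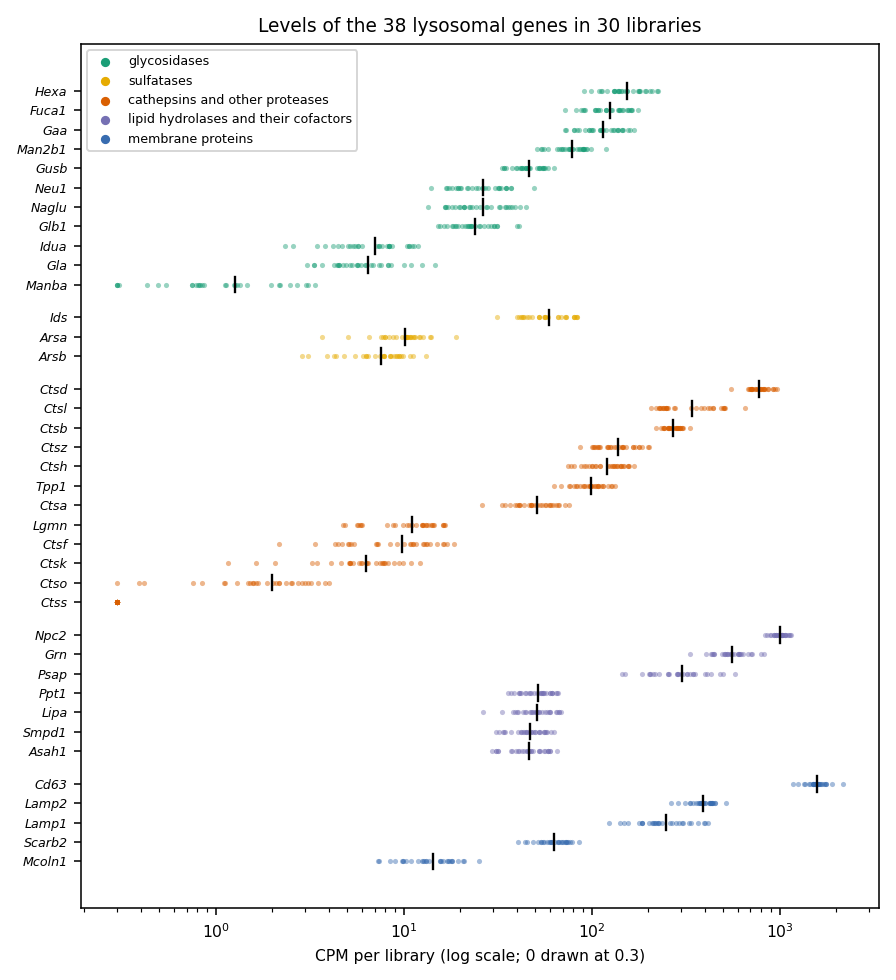
Level of each of the 38 genes in each of the 30 libraries (points, CPM on a log axis, values of 0 drawn at 0.3) with the mean (black bar), grouped by role. Cd63 lies above all other members, and Ctss is at 0 in all libraries.

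More of these genes passed the threshold between the times than between any doses. Over the mean of the 5 treatments, 23 of the 35 members rose from 6 h to 24 h and 2 fell at an FDR below 0.1 in edgeR's quasi-likelihood test, with Benjamini-Hochberg adjusted p-values. Among all genes tested, 58.9% passed in this comparison, 28.4% higher and 30.5% lower. The median log2 fold change was 0.35 over the 35 members and −0.01 over all genes. In vehicle cells alone, 10 rose and 2 fell, where 26.7% of all genes passed (12.5% higher, 14.2% lower), with medians of 0.30 and −0.03. All 12 members called in vehicle alone were also called over the treatments, a comparison that contains the same vehicle libraries. The times were separate harvests, so that time in culture and harvest cannot be told apart.

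Of the 10 glycosidases tested, 9 rose and 1 fell over the 5 treatments. Gaa, the acid alpha-glucosidase that degrades glycogen, was at 72.5, 83.6 and 72.6 CPM in vehicle cells at 6 h and at 138, 130.4 and 139 CPM at 24 h. All 3 later libraries were higher than all 3 earlier ones (log2 fold change 0.79, SE 0.15, edgeR FDR 0.000224). Hexa was at 112, 98.7 and 90.7 CPM in vehicle at 6 h and at 181, 140.4 and 150.3 CPM at 24 h, again without overlap (log2 fold change 0.61, SE 0.15, edgeR FDR 0.0037). Man2b1, the lysosomal alpha-mannosidase, was at 56.1, 51.2 and 53.5 CPM and then at 119, 93.2 and 88.5 CPM (log2 fold change 0.86, SE 0.16, edgeR FDR 0.000271). Fuca1, alpha-L-fucosidase, rose from 108, 92.5 and 72.1 CPM to 139, 164 and 154 CPM (log2 fold change 0.71, SE 0.15, edgeR FDR 0.000874). The vehicle libraries of the 2 times did not overlap for Man2b1 or for Fuca1. Naglu, an enzyme of heparan sulfate breakdown, was at 22.3, 23 and 17.2 CPM at 6 h and 27.7, 39.2 and 44.6 CPM at 24 h in vehicle (log2 fold change 0.80, SE 0.23, edgeR FDR 0.0111), and over all treatments it rose by 0.71 on the log2 scale (SE 0.10, edgeR FDR 3.55e-07). Neu1, the lysosomal sialidase, rose over the treatments (log2 fold change 0.57, SE 0.10, edgeR FDR 1.86e-05) but had an edgeR FDR of 0.541 in vehicle alone, where its log2 fold change was 0.22.

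Gla went the other way. In vehicle cells it was at 12.5, 11 and 14.7 CPM at 6 h and at 6.69, 3.35 and 4.39 CPM at 24 h, with no overlap (log2 fold change −1.43, SE 0.36, edgeR FDR 0.0039). Over the treatments its fall was 1.63-fold (log2 fold change −0.70, SE 0.17, edgeR FDR 0.000624). With CBD its 6 h libraries ran between 4.27 and 10.1 CPM with a median of 7.13, so that all 12 lay below the 3 vehicle libraries of that time. In the sulfatases, Ids, the iduronate sulfatase, rose from 43.1, 46.5 and 40.1 CPM to 80.2, 72 and 65.9 CPM in vehicle (log2 fold change 0.71, SE 0.18, edgeR FDR 0.00525). Arsa and Arsb, the arylsulfatases A and B, did not pass in either comparison, with log2 fold changes of −0.19 and 0.02 over the treatments.

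Among the proteases, 5 of 10 rose over the treatments and 1 fell. The one that fell was Ctsl, the endoprotease cathepsin L. It was at 360.3, 429 and 658 CPM in vehicle at 6 h and at 276, 254 and 243 CPM at 24 h. The 3 early libraries differed widely among themselves and all lay above the late ones (log2 fold change −0.96, SE 0.16, edgeR FDR 5.69e-05). Over all treatments Ctsl ran between 249 and 658 CPM with a median of 442 in 15 libraries at 6 h and between 206 and 279 CPM with a median of 241 in 15 at 24 h, a fall of 1.84-fold (log2 fold change −0.88, SE 0.07, edgeR FDR 1.18e-12). The only overlap came from library A14 of 0.325 µM at 6 h, whose 249 CPM lay within the range of 24 h. Ctsf, Ctsh and Ctsz, other cysteine cathepsins, rose. Ctsf was at 10.9, 5.22 and 2.18 CPM in vehicle at 6 h and 11.2, 10.1 and 13.9 CPM at 24 h, ranges that overlapped (log2 fold change 1.01, SE 0.39, edgeR FDR 0.0589), and had the largest rise of all members over the treatments (log2 fold change 1.15, SE 0.17, edgeR FDR 4.15e-07). Its call in vehicle was lost without A2, A3 or A30 and, at an edgeR FDR of 0.244, with the outside-gene share of reads as a covariate. Ctsh, an aminopeptidase, rose from 75.2, 81 and 90.7 CPM to 143, 136 and 136 CPM in vehicle without overlap (log2 fold change 0.70, SE 0.17, edgeR FDR 0.00318). Ctsz, a carboxypeptidase, rose over the treatments (log2 fold change 0.43, SE 0.07, edgeR FDR 3.6e-06). The abundant Ctsd and Ctsb did not pass (log2 fold changes 0.09 and 0.09), nor did Tpp1, a tripeptidyl peptidase (0.12), and Ctsk (0.14).

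All 7 lipid hydrolases and cofactors rose over the treatments, by log2 fold changes from 0.14 for Npc2 to 0.45 for Psap, the precursor of the saposins that help hydrolases reach their lipids. Lipa, the acid lipase, ran between 26.5 and 51.2 CPM with a median of 44.3 at 6 h and between 49.9 and 68.8 CPM with a median of 59.5 at 24 h, with overlap (log2 fold change 0.45, SE 0.08, edgeR FDR 1.84e-05). Smpd1, acid sphingomyelinase, ran between 31 and 46.1 CPM with a median of 42.2 at 6 h and between 47.5 and 63.1 CPM with a median of 53 at 24 h (log2 fold change 0.42, SE 0.07, edgeR FDR 5.9e-06). In vehicle alone only Psap passed among these 7, with 145, 150.5 and 255 CPM at 6 h and 433, 253 and 288 CPM at 24 h (log2 fold change 0.76, SE 0.24, edgeR FDR 0.019). Its ranges overlapped slightly, and without vehicle library A28 of 24 h its log2 fold change was 0.52 and its edgeR FDR 0.176. Of the 5 membrane proteins, only Mcoln1, the calcium channel TRPML1, rose over the treatments (log2 fold change 0.42, SE 0.14, edgeR FDR 0.0134), and Lamp1, Lamp2, Cd63 and Scarb2 (the membrane protein LIMP-2) lay between −0.08 and 0.14. In vehicle Mcoln1 was at 12, 7.31 and 9.83 CPM at 6 h and 13.1, 18.1 and 20.9 CPM at 24 h (log2 fold change 0.78, SE 0.33, edgeR FDR 0.088), a call that was lost without A2, A3, A29 or A30 and, at an edgeR FDR of 0.197, with the same covariate.

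**Figure D2:**
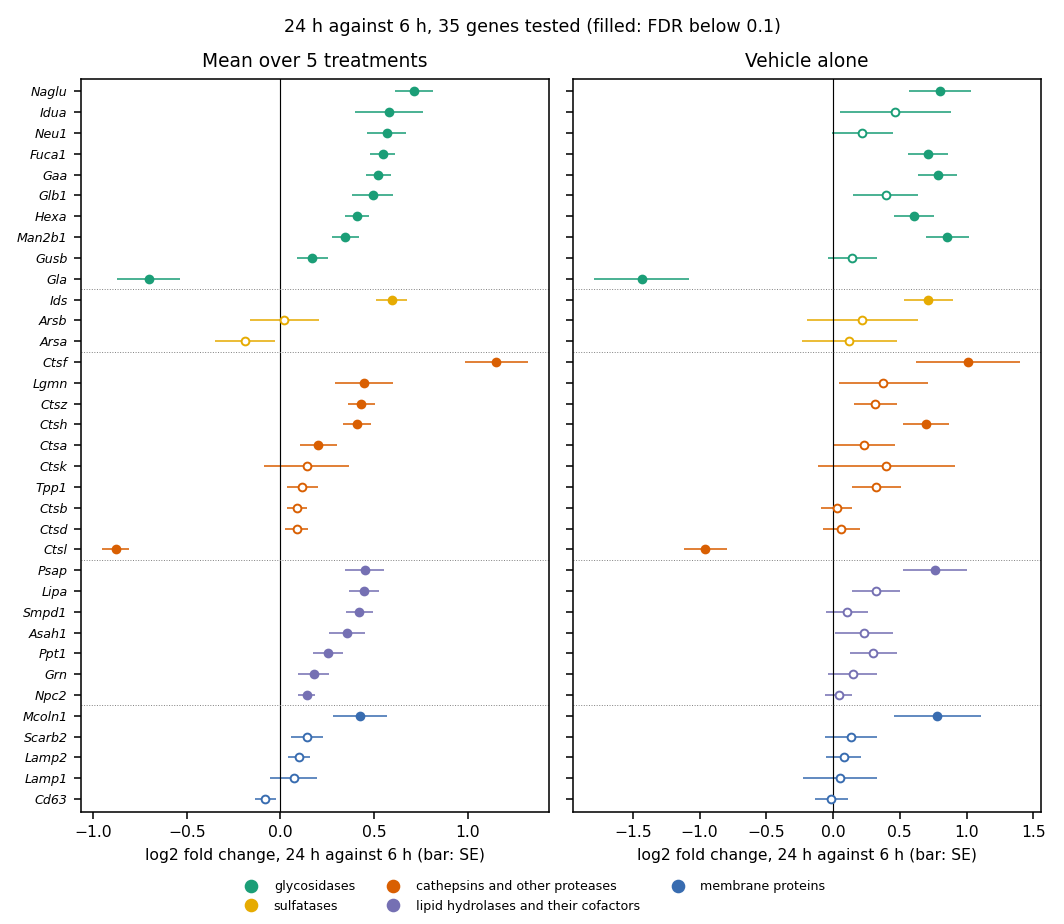
Log2 fold change of 24 h against 6 h for the 35 genes tested, over the mean of the 5 treatments (left) and in vehicle alone (right), with standard errors. Filled points passed an FDR of 0.1. Gla and Ctsl lie left of 0, and most others lie right of it.

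No member passed the threshold in any comparison of a CBD dose with its vehicle. At 6 h, 0 of 35 members passed at each of the 4 doses, where, from the lowest to the highest, 0.200%, 0.0749%, 0.0999% and 0.05% of all genes did. An unadjusted p under 0.05 was reached by 5, 3, 7 and 5 of the 35 members, and by 8.80%, 7.79%, 7.91% and 7.26% of all genes. DESeq2 called 1 member, Hexa, at 0.325 µM and none at the other doses. Over the mean of the 4 doses at 6 h, edgeR called 0 members (0.749% of all genes, 6 members and 10.3% of all genes at an unadjusted p under 0.05), and DESeq2 called Hexa. At 24 h, 0 of 35 passed at each dose, against, in the same order, 0.0660%, 0.0825%, 0.0413% and 0.00825% of all genes. The unadjusted counts were 5, 2, 3 and 4 of the 35 members, beside 8.33%, 7.63%, 7.34% and 9.16% of all genes, and DESeq2 called none. Over the mean of the doses at 24 h, 0 passed with edgeR and with DESeq2, 0.107% of all genes passed, and 2 members and 6.73% of all genes had an unadjusted p under 0.05. The 4 doses of a time share their 3 vehicle libraries, so their values are not independent.

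The members nearest to the threshold at 6 h were Hexa and Gla. Hexa was at 112, 98.7 and 90.7 CPM in vehicle and, with CBD, between 109 and 191 CPM with a median of 136. Its log2 fold change was 0.66 at 0.325 µM (SE 0.16, edgeR FDR 0.113), 0.40 at 0.75 µM, 0.34 at 1.5 µM and, for 3 µM, 0.37. The lowest dose had the largest value, and the mean over the doses gave 0.44 (SE 0.13, edgeR FDR 0.152). Gla, with its 3 vehicle libraries above all CBD-treated ones, gave −1.16, −0.73, −0.93 and −0.85 from the lowest to the highest dose, and −0.92 over their mean (SE 0.27, edgeR FDR 0.176). It is described for this comparison because of that gap, seen in its values. How many of all genes show such a gap was not counted. At 6 h Gla had 23, 21 and 54 reads in the vehicle libraries and 11 to 33 reads in those with CBD. Man2b1 had the smallest p at 0.75 µM (log2 fold change 0.48, SE 0.18, edgeR FDR 0.495) and at 1.5 µM (log2 fold change 0.49, SE 0.18, edgeR FDR 0.481). Psap had it at 3 µM (log2 fold change 0.57, SE 0.22, edgeR FDR 0.57). The vehicle libraries of 6 h differed among themselves in the share of reads outside genes, which was 21.4% in A1, 20.8% in A2 and 17.9% in A3. A3 also held the highest Lamp1 of that group (186, 149 and 399 CPM in A1, A2 and A3) and the lowest Grn (705, 598 and 335 CPM). With that share as a covariate, edgeR called 3 members at 0.325 µM (Ctsl, Hexa and Psap) and 3 over the mean of the doses (Gla, Hexa and Psap). Without A3, 1 member passed at 0.325 µM (Psap), 1 at 3 µM (Psap) and 1 over the mean (Psap). Without A1, Hexa passed at 0.325 µM, and without A14 of that dose Hexa passed over the mean.

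At 24 h the smallest p belonged to Psap at 0.325 µM (log2 fold change 0.54, SE 0.20, edgeR FDR 0.466), to Ctsz at 0.75 µM (log2 fold change 0.40, SE 0.13, edgeR FDR 0.412) and 1.5 µM (log2 fold change 0.36, SE 0.13, edgeR FDR 0.573), and to Lamp1 at 3 µM (log2 fold change −0.62, SE 0.19, edgeR FDR 0.461). Over the mean of the doses it belonged to Ctsz (log2 fold change 0.23, SE 0.11, edgeR FDR 0.727). At 3 µM, 27 of the 35 members lay below vehicle with a median log2 fold change of −0.15, while the medians at the lower doses, in rising order, were 0.06, 0.05 and 0.04. The median of all genes at 3 µM was 0.01. No test of the list as a whole was made. Without library A17 of 3 µM, 3 members passed at 3 µM (Lamp1, Lgmn and Psap).

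**Figure D3:**
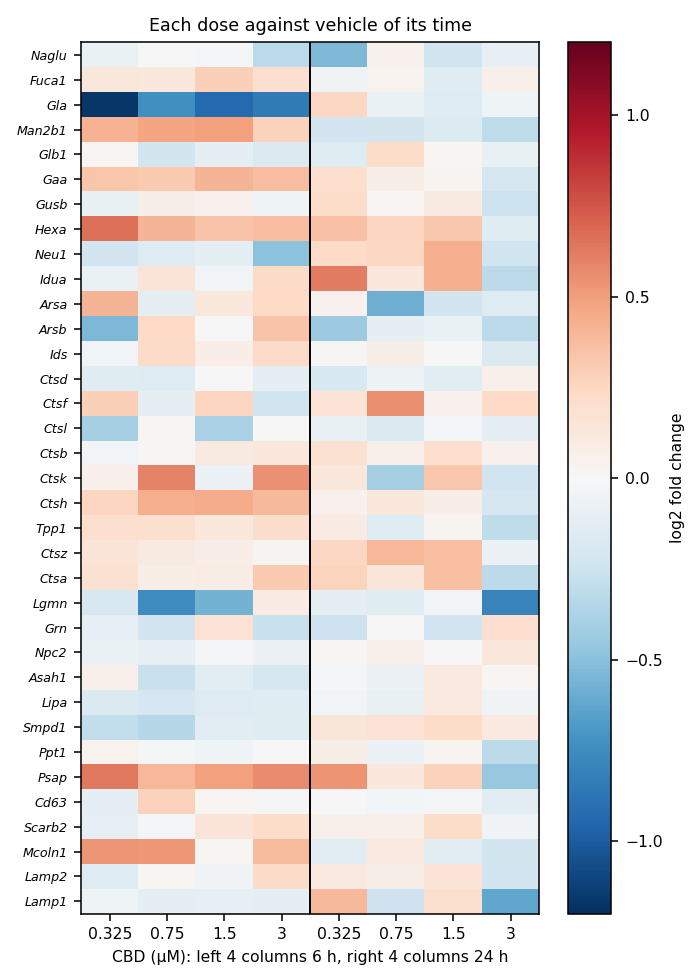
Log2 fold change of each CBD dose against the vehicle of the same time for the 35 genes tested (color), with the doses at 6 h in the left 4 columns and at 24 h in the right 4. Gla is blue at all 4 doses of 6 h, and Lamp1 and Lgmn are bluest at 3 µM and 24 h.

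The doses were then compared with each other, which does not involve the vehicle. At 6 h, no member differed among the 4 doses (0 of 35, 0.00% of all genes, 2 members and 3.76% of all genes at an unadjusted p under 0.05, 0 by DESeq2), and none differed between 3 µM and the 3 lower doses (0 of 35, 0.00% of all genes, 1 member and 5.19% of all genes at an unadjusted p under 0.05, 0 by DESeq2). That member was Lamp2 (log2 fold change 0.29, SE 0.11, edgeR FDR 0.905). In the comparison of all doses at 6 h the smallest p was that of Ctsl (unadjusted p = 0.044, edgeR FDR 1). At 24 h, 3 of 35 members differed among the 4 doses, against 1.93% of all genes. They were Lamp1 (edgeR FDR 0.0211), Psap (edgeR FDR 0.056) and Grn (edgeR FDR 0.0961). Between 3 µM and the mean of the 3 lower doses at 24 h, 9 of 35 members passed, against 10.5% of all genes. Of these, 8 were lower at 3 µM (4.16% of all genes) and 1 was higher (6.36% of all genes). Called or not, 28 of the 35 log2 fold changes were negative, with a median of −0.15 against 0.01 over all genes.

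Both major glycoproteins of the lysosomal membrane were lower at 3 µM than at the lower doses at 24 h, though neither passed against vehicle. In GENCODE M21 (GRCm38) the genes with the 4 most abundant transcripts among the 9 called are Grn at chr11:102430315-102437048, Lamp2 at chrX:38401357-38456454, Psap at chr10:60277627-60302597 and Lamp1 at chr8:13159161-13175338. Lamp1 was at 156, 201 and 142 CPM at 3 µM after 24 h, against 417, 368 and 260.2 CPM at 0.325 µM, 229.6, 226 and 214 CPM at 0.75 µM and 395, 280.2 and 224 CPM at 1.5 µM. The highest library of 3 µM was below the lowest of the other doses, and those doses differed widely among themselves. The difference was 1.66-fold (log2 fold change −0.73, SE 0.16, edgeR FDR 0.00983), and the 3 vehicle libraries of 24 h, at 339, 219 and 235 CPM, lay above those of 3 µM. Lamp2 was at 264, 373 and 366 CPM at 3 µM, against 439, 456 and 424 CPM at 0.325 µM, 421, 429.7 and 425 CPM at 0.75 µM and 434, 393 and 516 CPM at 1.5 µM. Library A16 was far below the other libraries and the remaining 2 were below the lowest of the other doses by little (log2 fold change −0.35, SE 0.11, edgeR FDR 0.0483). The vehicle libraries of 24 h, at 451, 361 and 399 CPM for Lamp2, overlapped those of 3 µM. The other membrane proteins did not pass (Cd63 −0.12, Scarb2 −0.15 and Mcoln1 −0.18 on the log2 scale).

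Psap and Grn, precursors that are both cut into several small proteins in the lysosome, differed in opposite directions. Psap was at 203, 300.1 and 184 CPM at 3 µM, against 578, 502 and 344 CPM at 0.325 µM, 305, 347 and 413 CPM at 0.75 µM and 484, 404 and 286 CPM at 1.5 µM. The ranges met only between library A17 of 3 µM and the lowest library of 1.5 µM (log2 fold change −0.77, SE 0.17, edgeR FDR 0.012). In vehicle at 24 h Psap was at 433, 253 and 288 CPM, a range that overlapped that of 3 µM. Grn was at 605, 676 and 792 CPM at 3 µM, against 524, 505 and 553 CPM at 0.325 µM, 606, 639 and 619 CPM at 0.75 µM and 515, 544 and 515 CPM at 1.5 µM. Its 3 µM libraries overlapped those of 0.75 µM and lay above those of 0.325 and 1.5 µM (log2 fold change 0.36, SE 0.09, edgeR FDR 0.0262). They also overlapped the vehicle libraries of 24 h, at 533, 622 and 710 CPM. The other 5 lipid hydrolases and cofactors did not pass, with values from −0.33 for Ppt1, palmitoyl-protein thioesterase, to 0.11 for Npc2.

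Among the glycosidases, Hexa, Neu1 and Gaa were lower at 3 µM than at the lower doses. Hexa was at 139, 153 and 121 CPM at 3 µM, below all 9 libraries of the lower doses, which ran between 166 and 225 CPM with a median of 195 (log2 fold change −0.46, SE 0.12, edgeR FDR 0.0228). Neu1 was at 24.9, 26.5 and 19.5 CPM at 3 µM, and the lower doses ran between 30.8 and 49.6 CPM with a median of 35, also without overlap (log2 fold change −0.54, SE 0.17, edgeR FDR 0.0605). Gaa was at 101, 126 and 114 CPM, and the lower doses ran between 119 and 169 CPM with a median of 145 (log2 fold change −0.31, SE 0.11, edgeR FDR 0.0819). The Gaa ranges overlapped, and the call was lost in 10 of 21 alternative analyses. Of the proteases, Ctsz and Ctsa were lower. Ctsa, the carboxypeptidase that stabilizes Neu1 and beta-galactosidase in a complex, was at 39.2, 48.1 and 33.4 CPM at 3 µM, and the lower doses ran between 46.5 and 75.8 CPM with a median of 62.3 (log2 fold change −0.57, SE 0.17, edgeR FDR 0.0427). Ctsz was at 132, 147 and 108 CPM, and the lower doses ran between 145 and 203 CPM with a median of 179 (log2 fold change −0.41, SE 0.11, edgeR FDR 0.0356). Both ranges overlapped slightly. Lgmn, the asparaginyl endopeptidase, had one of the lowest values but with a large error (log2 fold change −0.71, SE 0.28, edgeR FDR 0.128), and Ctsl did not differ beyond its error (−0.02, SE 0.09). No sulfatase passed.

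**Figure D4:**
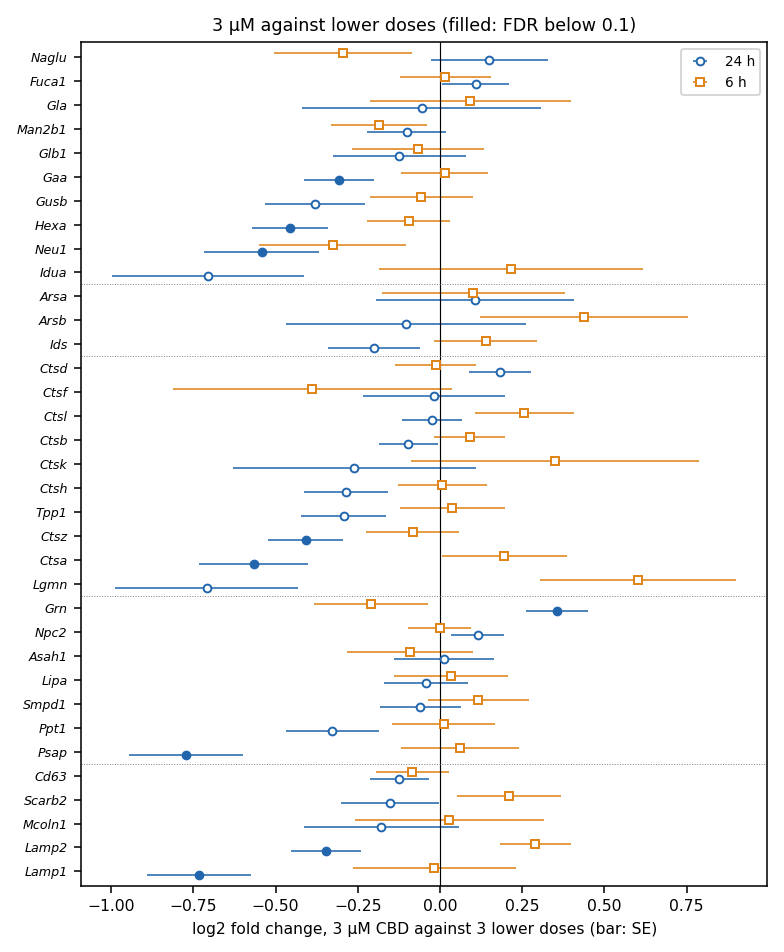
Log2 fold change of 3 µM against the mean of the 3 lower doses for the 35 genes tested, at 24 h (circles) and 6 h (squares), with standard errors. The 9 filled circles passed an FDR of 0.1, 8 of them left of 0 and Grn right of it, and no square is filled.

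These calls depended on single libraries. Without library A16 of 3 µM, 2 members passed (Grn and Lamp1), and without A18, 3 did. Without A17, 16 passed. For the difference among all 4 doses, the numbers were 1 without A16, 8 without A17, 0 without A18, 1 without A25 or A26 and 5 without A27. With the outside-gene share as a covariate, 0 of 35 members and 30 of all genes passed. The log2 fold change of Lamp1 was then −0.85 (edgeR FDR 0.256), that of Psap −0.63 (edgeR FDR 0.445) and that of Grn 0.09 (edgeR FDR 0.876). Among the CBD doses at 24 h, the dose of 3 µM and this share cannot be told apart. The vehicle libraries of 24 h, which had no CBD, also had a high share (20.9% to 22.2%). Markers of other cell types also differed in this comparison. Of the microglia and macrophage markers, 2 of 9 were tested, and Cx3cr1 was higher at 3 µM (log2 fold change 0.95, SE 0.31, edgeR FDR 0.0657), while Tyrobp, C1qa, C1qb and Itgam were at 0. Of the markers of fibroblasts and mesenchyme, 6 of 7 were tested, and Pdgfrb was lower (log2 fold change −0.44, SE 0.13, edgeR FDR 0.0427). No neuronal, astrocyte or oligodendrocyte marker passed (3, 2 and 1 tested), and the part of these markers in the calls was not tested. Of these 9 genes, 4 end under a gene on the opposite strand in GENCODE M21, and the strand setting of the counting was not given in the sources used here. Grtp1 over the end of Lamp1 averaged 28.7 CPM and had a log2 fold change of −0.41 in this comparison (edgeR FDR 0.119). Nelfcd over Ctsz averaged 23.9 CPM with a value of −0.10 (edgeR FDR 0.821). Pltp over Ctsa and Fam171a2 over Grn were below 1 CPM.

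**Figure D5:**
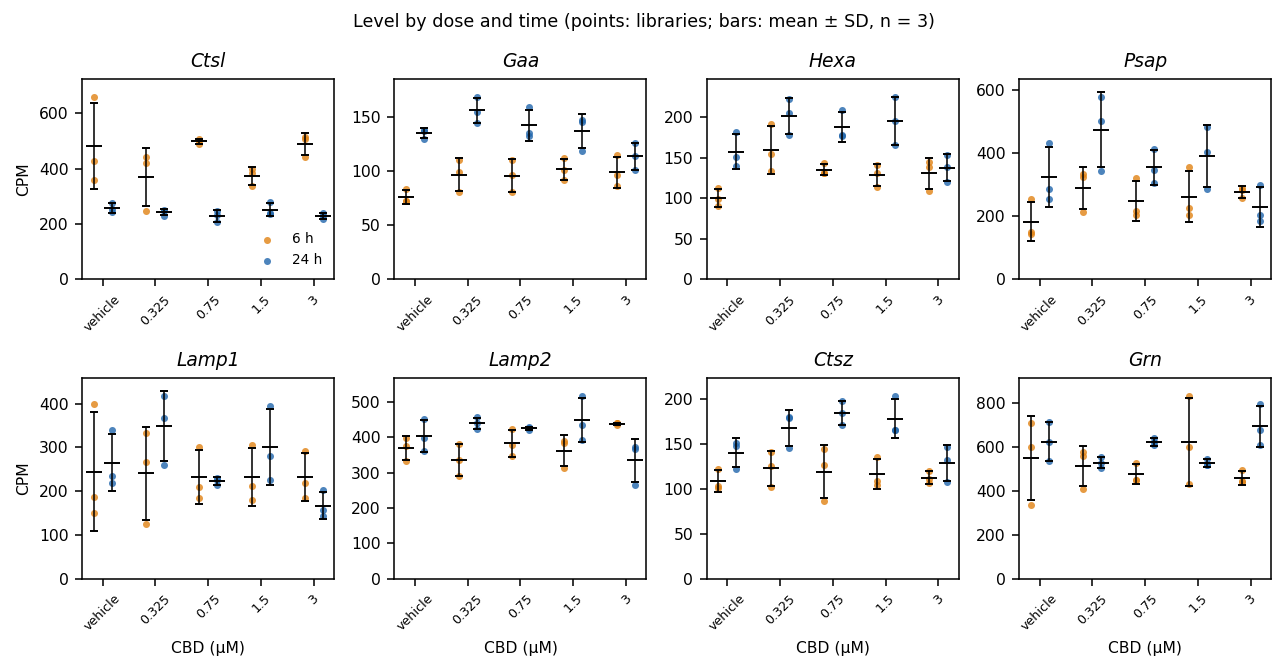
Level (CPM) of 8 members in each library by CBD dose at 6 h (orange) and 24 h (blue), with mean ± SD (n = 3) and axes from 0. At 24 h the 3 µM libraries are low for Lamp1, Psap, Hexa and Ctsz and high for Grn relative to the lower doses, and mean Ctsl is lower at 24 h than at 6 h in every treatment.

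Whether the response differed between the times was tested over all 30 libraries. For CBD against vehicle, 0 of 35 members differed between 24 h and 6 h (0.235% of all genes, 3 members and 6.52% of all genes at an unadjusted p under 0.05, 0 by DESeq2). The smallest p was that of Man2b1, whose difference between the log2 fold changes was −0.64 (SE 0.18, edgeR FDR 0.232). For 3 µM against the lower doses, 1 of 35 members differed, and in the lower direction (2.39% of all genes, 1.11% lower). It was Lamp2, at 439.6, 440.0 and 435 CPM with 3 µM at 6 h, above all 9 libraries of the lower doses, which ran between 289 and 424 CPM with a median of 377. Its log2 fold change was thus 0.29 at 6 h and −0.35 at 24 h, and the difference was −0.65 (SE 0.15, edgeR FDR 0.0647). Over all members, 27 of 35 differences were negative, with a median of −0.29 against 0.01 over all genes. The Lamp2 call was lost in 6 of 36 alternative analyses, among them the covariate above and the loss of any 1 library of 3 µM at 6 h or of A16 or A18 of 24 h. The number of members that passed was 6 without A17, 5 without A3, 4 without A12 or A27, 3 without A7 or A13, and 2 without A1, A15, A21 or A28. For CBD against vehicle, Man2b1 passed without A10.

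Other genes of the pathway were taken from 5 fixed lists. Tested over all libraries were 15 subunits of the V-ATPase that acidifies lysosomes and 28 other lysosomal proteins. So were 10 genes of mannose 6-phosphate tagging and sorting, 21 of the TFEB family with its control and 5 listed as cathepsin inhibitors. In the comparison of the times 58.9% of all genes passed, 28.4% higher and 30.5% lower. From 6 h to 24 h over the treatments, 16 of the other lysosomal proteins rose and 1 fell (median 0.31). Gm2a, the ganglioside activator that works with beta-hexosaminidase, had the smallest p of that list (log2 fold change 0.89, SE 0.08, edgeR FDR 2.91e-12), followed by the transmembrane proteins Laptm4a (log2 fold change 0.53, SE 0.07, edgeR FDR 5.44e-08) and Laptm4b (log2 fold change 0.40, SE 0.06, edgeR FDR 9.43e-07). The V-ATPase list had 5 up, 2 down and a median of 0.04; the difference between the lists was not tested. Its smallest p was that of Atp6v1a, the catalytic subunit (log2 fold change 0.40, SE 0.06, edgeR FDR 4.36e-07), followed by Atp6ap1 (log2 fold change 0.36, SE 0.07, edgeR FDR 5.52e-05) and Atp6v1d (log2 fold change 0.25, SE 0.05, edgeR FDR 8.11e-05). In tagging and sorting, 3 rose and 2 fell. Nagpa, which uncovers the mannose 6-phosphate tag, rose (log2 fold change 0.62, SE 0.08, edgeR FDR 5.87e-08), as did Sumf1, which activates sulfatases (log2 fold change 0.86, SE 0.12, edgeR FDR 2.6e-07), while Gnptab, the enzyme that begins the tag, fell (log2 fold change −0.43, SE 0.10, edgeR FDR 0.000478).

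Of the TFEB family and its control, 9 genes rose and 3 fell from 6 h to 24 h, a total near the share of all genes, and the smallest p was that of Rheb, an activator of mTORC1, which fell (log2 fold change −0.66, SE 0.08, edgeR FDR 1.13e-08). Ppp3cb, a catalytic subunit of calcineurin, fell (log2 fold change −0.32, SE 0.07, edgeR FDR 0.000414), and Lamtor4, of the complex that anchors the Rag GTPases, rose (log2 fold change 0.24, SE 0.06, edgeR FDR 0.00135). The factors themselves did not pass. Tfeb ran between 9.56 and 28 CPM with a median of 17.6 at 6 h and between 11.5 and 23.6 CPM with a median of 16.2 at 24 h (log2 fold change −0.04, SE 0.13, edgeR FDR 0.795), Tfe3 had a log2 fold change of −0.11 (SE 0.08, edgeR FDR 0.282) and Mitf of 0.12 (SE 0.11, edgeR FDR 0.334). TFEB is controlled mainly by phosphorylation and entry into the nucleus, which RNA levels do not measure. Of the genes listed as cathepsin inhibitors, which are cystatins and serpins, Cstb, cystatin B, fell (log2 fold change −0.71, SE 0.12, edgeR FDR 3.11e-06). Serpinb9, a serpin whose action on cathepsins was not examined here, rose (log2 fold change 0.66, SE 0.11, edgeR FDR 2.7e-06).

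At 3 µM against the lower doses at 24 h, 3 V-ATPase subunits of 15 and 2 other lysosomal proteins of 28 were lower. So were 1 gene of tagging and sorting of 10, 2 of the 21 in the TFEB list and 2 of 5 listed as cathepsin inhibitors. None of these lists had a gene that was higher. Among all genes 4.16% were lower and 6.36% higher, and 10.5% passed in either direction. Counted in either direction, the other lysosomal proteins and the TFEB list lay near that total share. Genes of these lists were not retested one by one in the alternative analyses. As given above, few of all genes passed with the outside-gene share as a covariate. The lowest value was that of Gnptg, the gamma subunit of the tagging enzyme (log2 fold change −0.96, SE 0.31, edgeR FDR 0.0632), and Cstb (log2 fold change −0.73, SE 0.17, edgeR FDR 0.0158), Rraga, a GTPase that recruits mTORC1 to lysosomes (log2 fold change −0.69, SE 0.15, edgeR FDR 0.012), and Atp6v1g1 (log2 fold change −0.62, SE 0.19, edgeR FDR 0.0496) followed. Cst3, cystatin C, the secreted inhibitor of cathepsins, was lower as well (log2 fold change −0.31, SE 0.10, edgeR FDR 0.0663), as were Laptm4a (log2 fold change −0.48, SE 0.13, edgeR FDR 0.0284) and Gm2a (log2 fold change −0.41, SE 0.12, edgeR FDR 0.0479). Tfeb, Tfe3 and Mitf had log2 fold changes of 0.06, 0.08 and 0.00 in this comparison and of −0.01, −0.05 and 0.42 for the mean of the doses against vehicle at 6 h, with no FDR below 0.1.

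Summed over the 38 genes, the share of all reads on genes was 0.653% ± 0.0206 (SD, n = 3) in vehicle at 6 h and 0.719% ± 0.0338 at 24 h. With CBD from 0.325 to 3 µM it was 0.622% ± 0.0736, 0.678% ± 0.0515, 0.662% ± 0.0336 and 0.667% ± 0.0101 at 6 h. At 24 h it was 0.752% ± 0.0306, 0.722% ± 0.0162, 0.740% ± 0.0194 and 0.671% ± 0.0573 in the same order. The 3 µM group thus had the lowest mean of the 5 groups at 24 h, with a range of 0.609% (library A16) to 0.721%. That range overlapped those of vehicle, 0.325 µM (0.717% to 0.772%) and 0.75 µM (0.704% to 0.735%). It lay below that of 1.5 µM (0.726% to 0.762%). Cd63 and Npc2 are the largest terms of this sum, and no test was made on it.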

How the data were processed

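Conditions were taken from the labels. The deposited values are raw counts, which the authors made by trimming reads with Flexbar, mapping them to GRCm39 with STAR 2.7.5c and assigning them to Ensembl genes with HTSeq 1.99.2. The strand setting is not given in the sources used here, so a gene and a partner on the opposite strand may not be separated. Reads with several alignments, among them those shared by Cd63 and its pseudogene, were not counted on genes. The summary lines of each file (such as reads outside genes) gave shares of reads and entered no gene count.

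Tests used edgeR 4.0.16 under R 4.3.3 (filterByExpr, TMM, quasi-likelihood F-test), with a mean per group, on 12012 genes at 6 h, 12118 at 24 h and 12790 over both times. The Benjamini-Hochberg adjustment covered every gene tested in a comparison, and the threshold was 0.1. The standard errors (SE) were derived from that test, as the absolute log2 fold change divided by the square root of its F statistic. Symbols were taken from GENCODE M21, which rests on GRCm38 and not on GRCm39, and named 51948 of 56941 genes. Promoter positions are those of GRCm38. The members and lists were chosen with earlier results of these data known. Named with values were each member past the threshold (at most the 12 smallest p per comparison), the 5 most abundant, the smallest p where none passed, untested members, up to 3 genes per other list, and Tfeb, Tfe3 and Mitf. Other members are named as counts or ranges required. Alternatives were DESeq2 1.42.0, RLE normalization, no filter, at least 10 counts in every library, mitochondrial genes left out, the share of reads that fell outside genes as a covariate, only the 6 libraries compared, and each library left out. No 2 libraries of a group agreed within sampling noise (chi-square per gene at least 2.17). The steps were tested on simulated data. Nothing in the labels says whether the libraries of a group came from separate cultures, so p-values measure the spread between these libraries, which may be technical. Limits from counts of 0 cover counting error only. Viability and qPCR were not analysed here.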

Additional observations from a re-analysis of the deposited data

Results flagged for a closer look

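Lamp2 was the only member whose response to 3 µM against the lower doses differed between the times in a test of the difference itself. That is 1 of 35 members, near the share of 2.39% among all genes. The log2 fold change of 24 h minus that of 6 h was −0.65 (SE 0.15, edgeR FDR 0.0647), with 3 µM above the lower doses at 6 h and below them at 24 h. The 3 libraries of 3 µM at 6 h lay between 435 and 440.0 CPM, a narrow range, while those at 24 h lay between 264 and 373 CPM. The share of reads outside genes at 3 µM was 19.4% to 19.5% at 6 h and 20.8% to 21.7% at 24 h, and with it as a covariate the difference was −0.50 (edgeR FDR 0.207). The Lamp2 call was lost in 6 of 36 alternative analyses, among them the loss of any 1 library of 3 µM at 6 h. Groups of 3 libraries are too small for a test of single outlying libraries.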

How the results depend on the processing

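The members past the threshold (at most the 12 smallest p in a comparison) kept their direction in every alternative run. Other values, such as those against vehicle and that of Gla over the treatments, were not recomputed gene by gene. The counts of members over the times were stable, at 23 to 28 over the treatments and 10 to 13 in vehicle when each library was left out, while the counts between doses were not. With the outside-gene share as a covariate, 0 members passed for 3 µM against the lower doses at 24 h (9 before), 0 among the doses at 24 h (3 before), 0 for the difference between the times at 3 µM (1 before), 3 at 0.325 µM and 3 for the mean of the doses at 6 h (0 before). DESeq2 called 1 member at 0.325 µM and 1 for the mean of the doses at 6 h, and 3 for the difference between the times at 3 µM. Without a filter on low counts, the numbers were 2 at 0.325 µM, 1 at 3 µM and 2 for the mean of the doses at 6 h, 1 at 0.325 µM, 2 at 3 µM and 6 among the doses at 24 h, and 6 for the difference between the times. At least 10 counts in every library gave 2 for that difference, and leaving out mitochondrial genes gave 2 among the doses at 24 h. The cause of these changes was not tested. Leaving out each library in turn gave 2 to 16 members for 3 µM against the lower doses and 0 to 8 among the doses at 24 h, 0 to 6 for the difference between the times at 3 µM and 0 to 1 for that of CBD against vehicle, 0 to 1 at 0.325 µM, 0 to 1 at 3 µM and 0 to 1 for the mean of the doses at 6 h, and 0 to 3 at 3 µM at 24 h (Lamp1, Lgmn and Psap without A17). In vehicle over time, the calls of Ctsf and Mcoln1 were lost in 4 and 5 of their alternatives. No paired analysis was possible because the labels give no replicate number shared between groups. With 3 libraries a group, standard errors of the mean of the doses against vehicle had a median of 0.160 at 6 h and 0.130 at 24 h on the log2 scale, so that a member passing no threshold is not shown to be unaffected by CBD.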
